A study of Bos taurus and Bos indicus with 3 samples.

Results

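The genes described here encode the cytosolic ribosomal proteins, the protein components of the machine that translates messenger RNA. They were picked by name alone: a gene model of the deposited table belonged to the group if its only name was RPL or RPS with a number, or the matching bovine UniProt entry name, with the RPS6 kinases left out. A protein that stood on several models was represented by the model with the highest mean level. This gave 75 proteins out of 25968 gene models, 44 of the large subunit and 31 of the small subunit, on 96 models in all.

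The study compared white blood cells of an indicine breed with those of 2 taurine dairy breeds. Tail vein blood was pooled from 45 Cholistani cows in Pakistan, which the labels place in Bos indicus, and from 7 Jersey and 40 Holstein cows, both Bos taurus, kept at sites of the University of Wisconsin. Each pool gave 1 library of polyadenylated RNA. The labels name no treatment, age or lactation stage, and Cholistani RNA alone travelled in RNAStable, a dry storage matrix, so breed, place and handling cannot be told apart. Levels are FPKM (fragments scaled to transcript length and sequencing depth), which the authors normalized by upper quartile. A fold is the ratio of FPKM + 1 between libraries, given as its log2. With 1 library per breed there is no replicate error, so no test was possible, and every difference stated here is a difference between 3 libraries rather than between breeds. A gene was counted as higher or lower when that ratio reached 2-fold.

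A ribosome carries a single copy of nearly every ribosomal protein, and cells normally make these proteins in matched amounts. Their messenger RNAs are among the most abundant in any growing cell, and most begin with a run of pyrimidines, the 5' terminal oligopyrimidine (TOP) motif, through which TOR signalling controls their translation. Mammalian genomes also hold many intronless copies of ribosomal protein genes, most of them inactive, whose sequence closely resembles the spliced messenger RNA. In blood, mutations in several of these genes cause Diamond-Blackfan anaemia in humans, a failure of red cell formation.

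Of 79 proteins of the standard mammalian ribosome, 70 were in the group, and the other 5 members were the paralogs RPL3L, RPL10L, RPL22L1, RPL26L1 and RPS27L. The remaining 9 standard proteins were outside the naming rule. Among them, RPL3, RPL4 and RPL27A stood only on models whose name also held a small nucleolar RNA, RPL34, RPL41 and RPLP2 were on no model with such a name, and FAU, a fusion with a ubiquitin-like protein, was listed under another entry name. Of the 75 members, 73 were above 0 in all 3 libraries. RPL3L, a form known from skeletal and heart muscle, and RPL10L, a form known from the testis, were listed at 0 in every library.

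The white cell label was checked against marker genes. CORO1A, a leukocyte actin-binding protein, had 16310 FPKM in Cholistani, 7842 in Jersey and 7638 in Holstein, and the red cell genes HBM and AHSP were listed at 0 in all 3 libraries. Marker sums for cell types were not level: the 4 T cell genes found summed to 9757, 4651 and 4662 FPKM in Cholistani, Jersey and Holstein, the 3 B cell genes to 16162, 8052 and 6542, the 2 natural killer cell genes to 2980, 721 and 975, the 3 monocyte genes to 1142, 633 and 963, the 6 neutrophil genes to 31792, 28807 and 36651, the 3 platelet genes to 811, 1043 and 911, and the 4 red cell genes to 102, 375 and 536. The red cell sum was mostly ALAS2, a heme synthesis enzyme, with 32.3, 363 and 536 FPKM, while the higher HBA model ran the other way with 69.3, 11.5 and 0 FPKM. In the platelet sum PPBP had 621, 939 and 821 FPKM and GP9, in the other direction, 190.0, 104 and 84.5 FPKM. The neutrophil sum was mostly S100A12 (13418, 12184 and 17413 FPKM), S100A8 (7767, 9500 and 11065) and S100A9 (8014, 6584 and 7473). CSF3R, with 1976, 532 and 657 FPKM, and CXCR2, with 598, 7.62 and 33.5, were highest in Cholistani. In the B cell sum CD79A had 14273, 6190 and 5281 FPKM and PAX5, in the other direction, 145, 381 and 296 FPKM. The part of this make-up in any difference described here was not tested, and in pooled white cells more cells of a type cannot be told apart from more RNA per cell.

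Ribosomal protein messages were among the most abundant RNAs of each library. Together the members held 14.9% of the summed FPKM in Cholistani, 15.2% in Jersey and 14.4% in Holstein, a share that no rescaling of a library changes. The large subunit proteins held 6.92%, 7.45% and 6.95%, and the small subunit proteins 7.94%, 7.73% and 7.50%. In each library 32 of the 100 most abundant models were members. The median member had 12116 FPKM in Cholistani, 10402 in Jersey and 9244 in Holstein, against 73.3, 72.6 and 69.8 over the 15284 models above 0 in any library. The summed FPKM of the Cholistani library itself was larger, at 9525773 against 6288105 in Jersey and 5949765 in Holstein.

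Levels differed widely between members, although the proteins enter the ribosome in equal number. The highest by mean was RPS29, a small zinc-binding protein of the small subunit head, with 90271, 59481 and 53527 FPKM in Cholistani, Jersey and Holstein, on a model of only 171 bases at chr9:82951430-82951600 (btau4.0). RPL31, which sits at the rim of the peptide exit tunnel, had 49939, 36592 and 33583 FPKM. RPS15, near the decoding site in the head, had 54512, 28894 and 28133 FPKM, and RPL13A, also known from translational silencing in interferon-treated human monocytes, had 43254, 31323 and 28735 FPKM. RPS3, RPL18 and RPLP0, also among the top 10, had between 21842 and 50177 FPKM. At the low end stood RPL21 with 192, 357 and 269 FPKM, RPS14 with 798, 436 and 349 FPKM, and the paralogs RPL22L1, RPL26L1 and RPS27L, each under 1000 FPKM in every library. RPL21 and RPS14 had no model at the place of the RefSeq gene (examined further on). Their values are thus those of models at another place and may not be the levels of those genes. The same holds for the 171-base model of RPS29. At its RefSeq place RPS29 had 768 FPKM in Cholistani, 1963 in Jersey and 1302 in Holstein. The order of members was close between Jersey and Holstein, where the log2 levels had a Pearson's r of 0.994 over 73 members, and looser for Cholistani with Holstein (0.935) and with Jersey (0.933). These correlations are across genes that share their libraries and are given as a description.

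**Figure D1:**
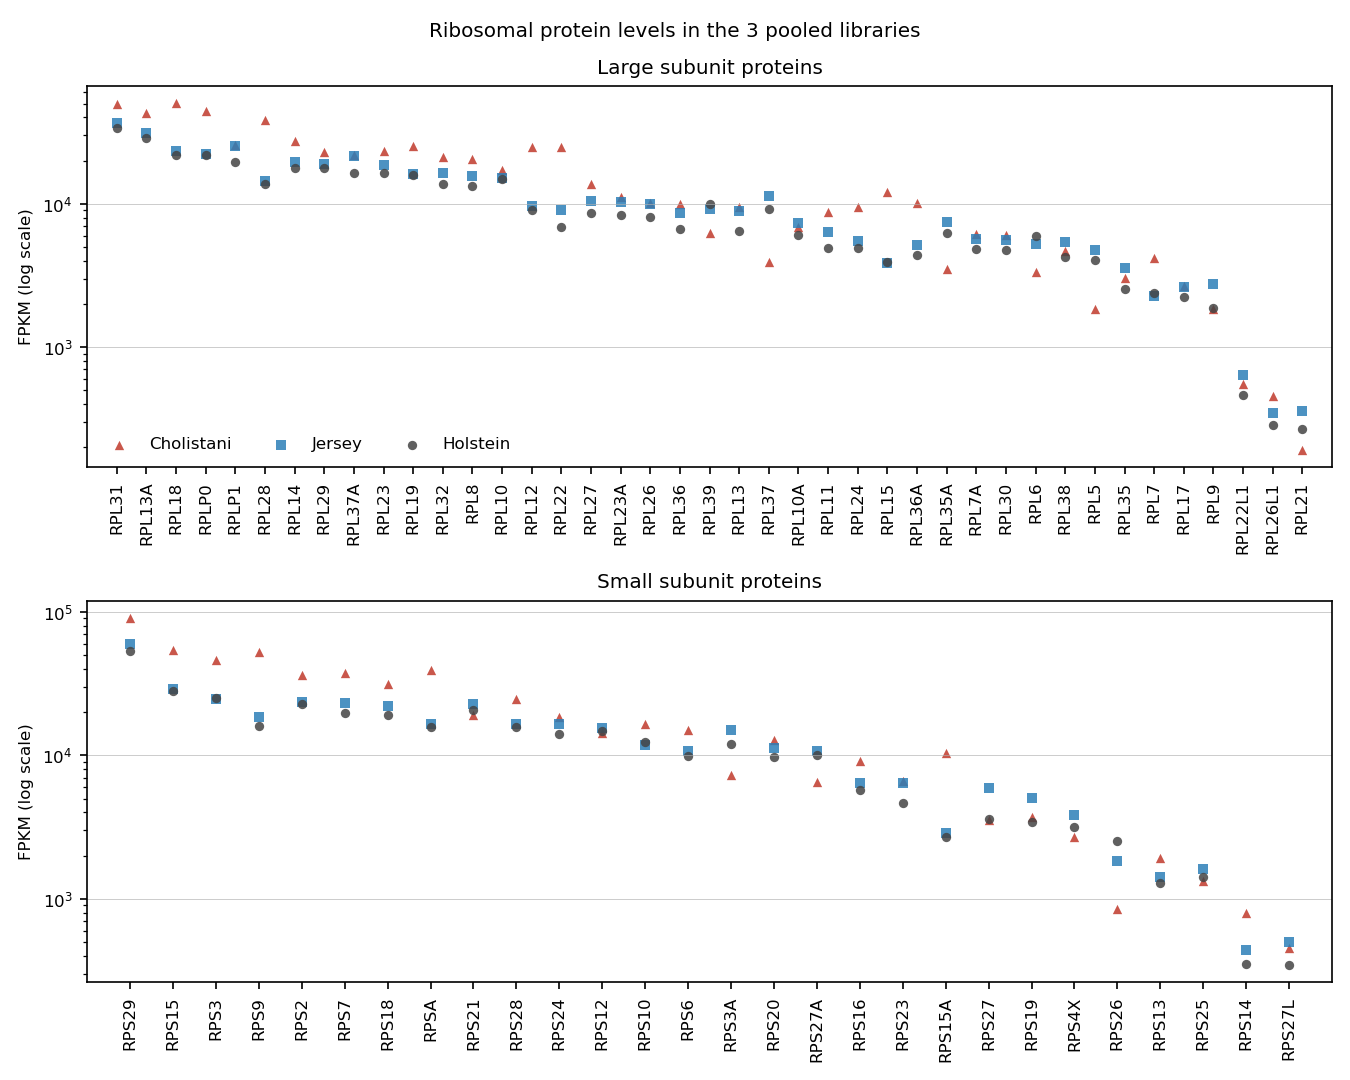
FPKM of 69 of the 73 detected ribosomal proteins on a log axis in Cholistani (triangles), Jersey (squares) and Holstein (circles), with large subunit proteins above and small subunit proteins beneath, ordered by mean level. Over all 73, 67 members in Cholistani and 68 in each taurine library reach 1000 FPKM, Jersey and Holstein points mostly touch, and Cholistani points leave the pair in both directions.

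Set against Holstein, 13 of 73 members reached 2-fold higher levels in Cholistani and 3 were lower by as much. Over all 15284 models 19.7% were that much higher and 13.7% that much lower, and among the 866 models with a mean of at least 1000 FPKM, which hold 68 of the members, the shares were 26.6% and 3.93%. The 13 of 73 is 17.8% and the 3 of 73 is 4.11%, both near these shares or under them. The 866 models share a minimum level only, and the members are among the more abundant of them. The median member had a log2 fold of 0.57, against 0.15 over all models and 0.58 over the 866 abundant ones. These numbers depended on the scale: with each library brought to the same summed FPKM, the median member had a log2 fold of -0.11 and all models one of -0.43, and 3 members were higher and 9 lower. On that scale 11.6% of all models were higher and 27.5% lower, and 71 and 104 of the 866 abundant models, with a median of -0.09 over the abundant ones.

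The spread of the members around their own median does not depend on the scale of a library. Relative to the list's own median, 5 members were at least 2-fold above it and 9 at least 2-fold beneath it, 19.2% of the 73. The same share was 20.2% for the abundant models around their median and 32.6% for all models, so by this share the members were near the abundant models. By other measures the members were less spread. Their SD was 0.71 and their interquartile range ran from 0.20 to 0.81, against 1.49 and 0.14 to 1.02 for the abundant models. The members 2-fold above their median included RPS15A, RPL22, RPS9 and RPL15. The 9 beneath were RPS26, RPL37, RPL5, RPL6, RPL35A, RPS3A, RPL39, RPS27A and RPL21. In Jersey against Holstein no member was that far from the median, where 2.89% of the abundant and 12.7% of all models were.

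The member with the highest fold was RPS15A, a protein of the small subunit body, which had 10364 FPKM in Cholistani, 2855 in Jersey and 2677 in Holstein (log2 fold over Holstein 1.95). Its model covers 393 bases at chr8:87655810-87656202, and other models of the same name are described further on. RPL22, at chr16:44345513-44353175, had 25013 FPKM in Cholistani, 9020 in Jersey and 6837 in Holstein, a log2 fold of 1.87. RPL22 is needed for the development of alpha-beta T cells in mice, where it also represses its paralog Rpl22l1. RPL22L1 had 552 FPKM in Cholistani, 635 in Jersey and 463 in Holstein. The level of RPL22 was thus 45.3 times that of RPL22L1 in Cholistani, 14.2 times in Jersey and 14.8 times in Holstein, a ratio taken within each library.

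RPS9, at chr18:63610157-63654437, helps to shape the mRNA entry channel. It had 52190 FPKM in Cholistani, 18616 in Jersey and 16109 in Holstein (log2 fold 1.70). RPL15, a protein deep in the large subunit, had 12116, 3857 and 3903 FPKM in the 3 libraries (1.63). For each of RPS15A, RPL22, RPS9 and RPL15 the Jersey and Holstein values lay nearer to each other than to the Cholistani value above them.

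Other members past 2-fold against Holstein were RPL28 (38391 FPKM in Cholistani, 14353 in Jersey, 13801 in Holstein), RPL12, a protein at the base of the stalk (24737, 9575 and 9039), RPSA, known also as the laminin receptor precursor (39164, 16436 and 15828), RPL36A, near the exit site for transfer RNA (10136, 5188 and 4355), RPL18 (50177, 23499 and 21933), RPS14 (798, 436 and 349) and RPLP0 (44664, 22360 and 21842). Their log2 folds ran from 1.48 for RPL28 to 1.03 for RPLP0. Just outside the threshold were RPL24 at 0.96 and RPS15 at 0.95. Among the higher members, the values of RPS15A, RPL15, RPL12, RPL36A and RPS14 came from models away from the place of the RefSeq gene.

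Each of the 3 lower members had its lowest level in the Cholistani library. RPS26, which lines the mRNA exit channel and is mutated in some patients with Diamond-Blackfan anaemia, had 851 FPKM in Cholistani, 1842 in Jersey and 2520 in Holstein, a log2 fold of -1.57. It was the member with the lowest fold and lies at chr5:61844816-61847607. RPL37, a zinc-binding protein of the large subunit at chr20:35785817-35788747, had 3895 FPKM in Cholistani, 11311 in Jersey and 9244 in Holstein (-1.25). RPL5, which with RPL11 and 5S rRNA forms the particle that binds MDM2 when ribosome assembly fails, had 1852 FPKM in Cholistani, 4773 in Jersey and 4071 in Holstein (-1.14), at chr3:53996665-54005267.

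RPL5 and its partner RPL11 lay on opposite sides. RPL11 had 8743 FPKM in Cholistani, 6362 in Jersey and 4932 in Holstein, a log2 fold over Holstein of 0.83. The level of RPL11 was 4.72 times that of RPL5 in Cholistani, 1.33 times in Jersey and 1.21 times in Holstein. Just short of the threshold on the lower side were RPL6 at -0.85, RPL35A at -0.81 and RPS3A at -0.74. RPL6 had 3327 FPKM in Cholistani, 5224 in Jersey and 6000 in Holstein. RPL35A, also a Diamond-Blackfan gene, had 3526, 7502 and 6199 FPKM. RPS3A, at the mRNA exit side of the small subunit, had 7253 FPKM in Cholistani, 14922 in Jersey and 12086 in Holstein. All these low values came from models at the place of the RefSeq gene of that name.

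**Figure D2:**
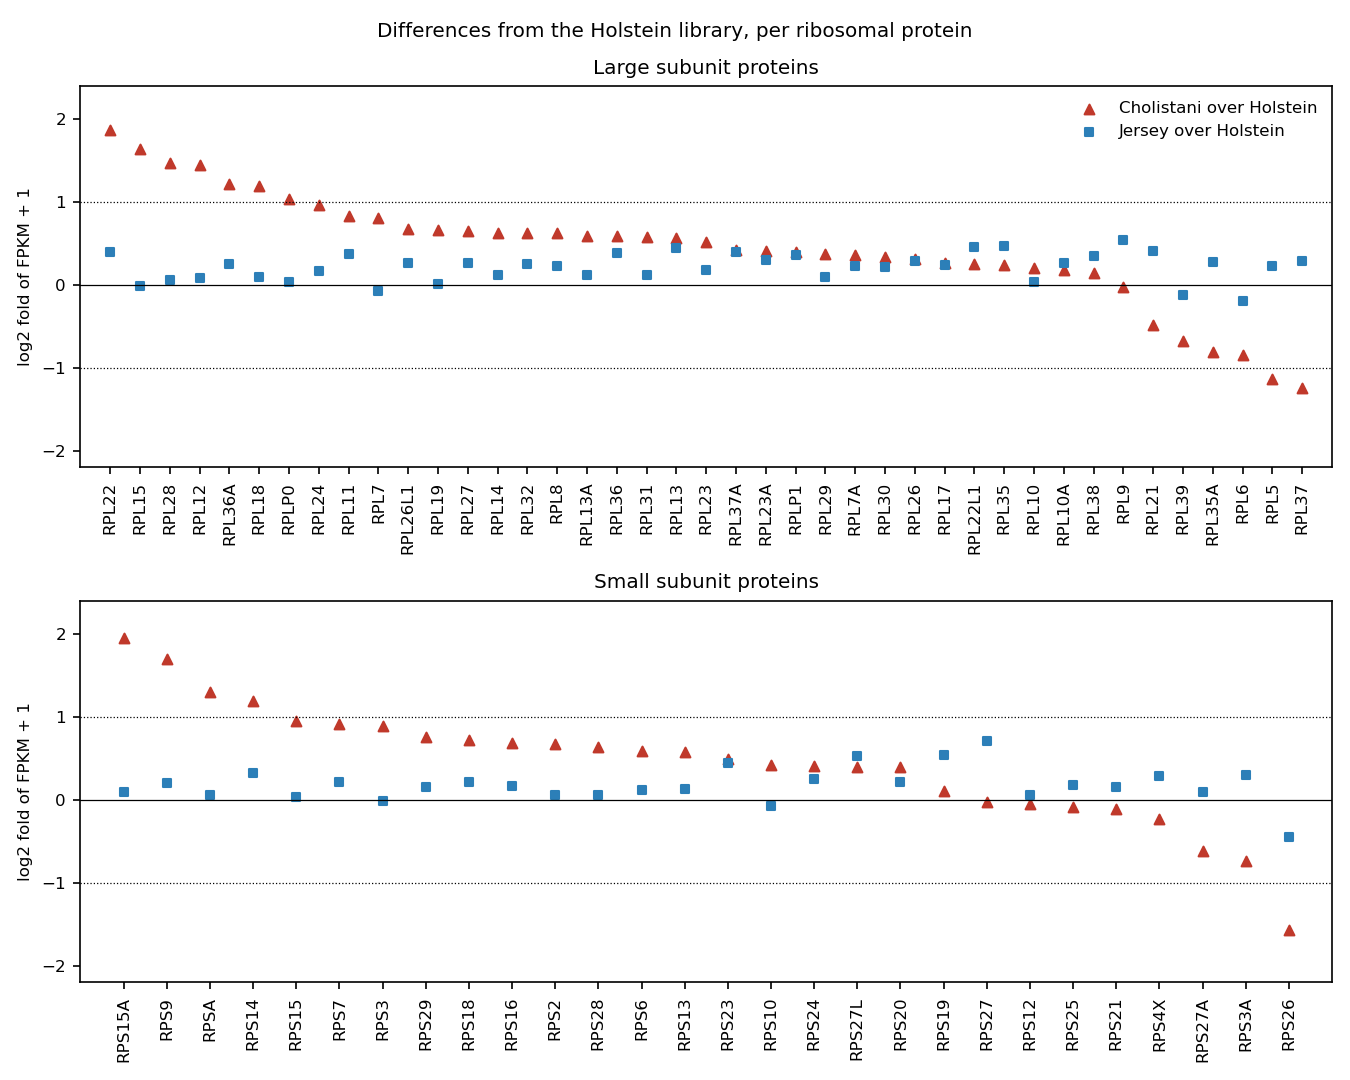
log2 fold of FPKM + 1 over Holstein for 69 of the 73 members, Cholistani as triangles and Jersey as squares, large subunit above and small subunit beneath, ordered by the Cholistani fold; dotted lines mark 2-fold. Cholistani folds run from 1.95 (RPS15A) to -1.57 (RPS26), while the Jersey folds lie between 0.71 and -0.45.

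Set against Jersey, 10 members were at least 2-fold higher in Cholistani and 5 at least 2-fold lower, with a median log2 fold of 0.38. Over all models 17.2% were that much higher and 14.2% lower, with a median of 0.12. Among the abundant models the shares were 23.4% and 5.54%, with a median of 0.57. The higher members included RPS15A at 1.86, RPL15 at 1.65, RPS9, RPL22, RPL28, RPL12, RPSA and RPL18 at 1.09. The 5 lower ones were RPL37 at -1.54, RPL5 at -1.37, RPS26 at -1.11, RPL35A at -1.09 and RPS3A at -1.04. Both Cholistani comparisons use the same Cholistani library, so they are not separate evidence for any of these genes. On libraries of equal sum 2 members were higher and 13 lower than in Jersey, with a median of -0.22 against -0.41 over all models and -0.03 over the abundant ones. On that scale 10.4% of all models were higher and 26.2% lower, and 65 and 102 of the 866 abundant ones.

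Between the taurine breeds, no member reached 2-fold in either direction in Jersey against Holstein. In that comparison 7.99% of all models were at least 2-fold higher and 4.70% lower, and 2.66% and 0.231% of the abundant ones. The members nevertheless lay mostly on 1 side: 65 of 73 had a log2 fold above 0, with a median of 0.21 and an SD across members of 0.19. Among the 866 abundant models 489 were above 0, and among all 15284 models 7538. The abundant models had a median of 0.03 and an SD of 0.64, and all models a median of 0.00. That SD includes extreme folds, up to 13.6, and the interquartile ranges were closer. They ran from 0.09 to 0.29 for the members and from -0.11 to 0.18 for the abundant models. On libraries of equal sum the median member stayed positive, at 0.13.

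The members farthest above in Jersey were RPS27, a zinc finger protein of the small subunit, with 5881 FPKM in Jersey and 3603 in Holstein (log2 fold 0.71), RPL9 with 2740 and 1880 FPKM (0.54), RPS19 with 5031 and 3455 FPKM (0.54), RPS27L (0.53) and RPL35 (0.47). The RPS27L fold is that of a 519-base model on chromosome 3. At its RefSeq place on chromosome 10 the sign turned, with 336 FPKM in Jersey and 443 in Holstein (-0.40). RPS19 is the gene most often mutated in Diamond-Blackfan anaemia. In Cholistani RPS27, RPL9 and RPS19 had 3527, 1850 and 3720 FPKM, near the Holstein values. At the other end were RPS26 at -0.45, RPL6 at -0.20, RPL39 at -0.12, RPS10 at -0.08 and RPL7 at -0.08. RPS26 and RPL6 thus had their highest value in Holstein, their lowest in Cholistani and Jersey between them.

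Grouped by position in the ribosome, the members had medians from 0.36 to 0.63. Between Cholistani and Holstein the 42 large subunit proteins above 0 had a median log2 fold of 0.54, with 8 higher and 2 lower, and the 31 small subunit proteins one of 0.59, with 5 higher and 1 lower. Within the small subunit the 14 head proteins had a median of 0.63 and the 16 proteins of the body and platform one of 0.59. The 8 proteins around the exit tunnel had a median of 0.36. The 30 members with relatives in all domains of life had a median of 0.65, with 6 higher and 1 lower, and the 40 other standard members one of 0.41, with 7 higher and 2 lower. The 19 measured Diamond-Blackfan genes had the median of the whole list, 0.57, with 4 higher and 2 lower. As shares, 19.0% of the large and 16.1% of the small subunit proteins were higher, and 4.76% and 3.23% lower. For the conserved members the shares were 20% and 3.33%, for the other standard members 17.5% and 5%. For the Diamond-Blackfan genes they were 21.1% and 10.5%. Over all models 19.7% were higher and 13.7% lower, and over the abundant ones 26.6% and 3.93%.

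The stalk that recruits elongation factors is built of RPLP0, RPLP1 and RPLP2. RPLP1 had 25681 FPKM in Cholistani, 25201 in Jersey and 19566 in Holstein, so that RPLP0 was at 1.74 times the level of RPLP1 in Cholistani, 0.89 times in Jersey and 1.12 times in Holstein. Among the paralogs, RPL26 stood at 22.02 times RPL26L1 in Cholistani, 28.7 times in Jersey and 28.4 times in Holstein. RPS27 stood at 7.72 times RPS27L in Cholistani, 11.8 times in Jersey and 10.4 times in Holstein, with RPS27L, a p53 target in human cells, taken from a 519-base model on chromosome 3. With RPS27L taken from its RefSeq place the order turned, and RPS27 stood at 18.2 times RPS27L in Cholistani, 17.5 times in Jersey and 8.13 times in Holstein.

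Some ribosomal proteins are made as fusions to ubiquitin or a ubiquitin-like protein. RPS27A, the fusion with ubiquitin among the members, had 6495 FPKM in Cholistani, 10709 in Jersey and 9999 in Holstein (log2 fold over Holstein -0.62). Outside the naming rule, the entry on chromosome 29 that shares 15 of 20 neighbours with FAU had 11389 FPKM in Cholistani, 12934 in Jersey and 12895 in Holstein (-0.18). RACK1, a small subunit protein with another kind of name, had 31864, 22411 and 22183 FPKM (0.52). The 4 models merged with a small nucleolar RNA name had log2 folds from -0.68 for RPL27A to 0.75 for RPL3.

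More abundant members had higher folds of Cholistani over Holstein. The 24 most abundant members, with means of 18905 FPKM or more, had a median log2 fold over Holstein of 0.70, with 6 higher and 0 lower. The 24 in the middle had 0.49, and the 25 least abundant 0.25, with 4 higher and 2 lower. The higher ones are 25% of the most and 16% of the least abundant members, against 19.7% of all models and 26.6% of the abundant models. Since the means include the Cholistani values, the ordering is not independent of the fold. In Jersey against Holstein the order was the other way, with medians of 0.12, 0.24 and 0.27. Of the 25 chromosomes with a member, chromosome 18 held the most. Its 9 members, among them RPL13A, RPL18, RPS9 and RPL28, had a median log2 fold over Holstein of 0.69, with 3 higher and 0 lower. The 64 members on other chromosomes had a median of 0.46. Of the 9, 33.3% were higher, against 15.6% of the 64 and 19.7% of all models.

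Since the family has so many copies in the genome, the place of each model was examined. The named neighbours of each model were compared with the RefSeq neighbours of the gene of that symbol, taking 10 on each side in the table and 20 in RefSeq. The models fell cleanly apart: 70 shared between 7 and 20 neighbours with the RefSeq place, and 26 shared 0. Of the 26 models at another place, 17 were shorter than 1000 bases, against 1 of the 70. The highest model was at another place for 13 members, RPS15A, RPL15, RPL12, RPL36A, RPS14, RPL21 and RPS29 among them. Between Cholistani and Holstein 5 of these 13 (38.5%) were at least 2-fold higher and 0 lower. Of the 60 detected members at the RefSeq place, 8 (13.3%) were higher and 3 (5%) lower. Over all models the shares were 19.7% and 13.7%.

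The models at another place and at the RefSeq place gave different folds for the same protein. In 11 proteins with both kinds above 0, 14 pairs could be formed, and the model at the other place had the higher log2 fold of Cholistani over Holstein in 13 of them, by a median of 1.46. Against Jersey it was higher in 12 of 14 pairs, by a median of 1.64, and in Jersey against Holstein in 7 of 14, with a median difference of -0.16. Pairs of 1 protein share a sequence and all pairs share the same libraries, so the counts are a description.

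RPS15A shows the contrast most plainly. Its model on chromosome 20 had 8775 FPKM in Cholistani, 2375 in Jersey and 2264 in Holstein, much as the one on chromosome 8. At the RefSeq place on chromosome 25 the values were 10.72, 25.04 and 27.42 FPKM, a log2 fold of -1.28. For RPL15 the RefSeq place on chromosome 27 had 1953 FPKM in Cholistani, 3708 in Jersey and 2769 in Holstein (-0.50), against 1.63 for the model on chromosome 2. RPS29 at its RefSeq place on chromosome 10 had 768, 1963 and 1302 FPKM (-0.76), while the 171-base model on chromosome 9 had a log2 fold of 0.75. For these 3 proteins the sign of the difference thus turned with the model.

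The same turn was seen in RPS27A and RPS27L. RPS27A on chromosome 8 had 12627 FPKM in Cholistani, 7723 in Jersey and 6192 in Holstein (1.03), against -0.62 at the RefSeq place. RPS27L at its RefSeq place on chromosome 10 had 194, 336 and 443 FPKM (-1.19), against 0.40 for the chromosome 3 model. RPL12 and RPL36A at their RefSeq places were low, with 541, 921 and 554 FPKM and 330, 606 and 383 FPKM in Cholistani, Jersey and Holstein (-0.03 and -0.22). A model of RPL36A on chromosome 10 lies among 16 of 18 neighbours of RPL36AL, a paralog gene, and had 4415, 3310 and 3480 FPKM. RPS27 was the 1 exception among the pairs: its 255-base model on chromosome 6 had 316, 922 and 828 FPKM (-1.39), against -0.03 at the RefSeq place. In all, 10 of the 16 proteins on several models had models with folds of opposite sign between Cholistani and Holstein.

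RPL23A had 3 models, none at the RefSeq place, and the taken one hid the largest folds. On chromosome 6 it had 11126 FPKM in Cholistani, 10327 in Jersey and 8388 in Holstein (0.41). On chromosome 14 it had 11278, 2571 and 2909 FPKM (1.95), and on chromosome 9 it had 12158, 2098 and 2163 FPKM (2.49). The Cholistani values of the 3 models were alike, and the taurine values were not.

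**Figure D3:**
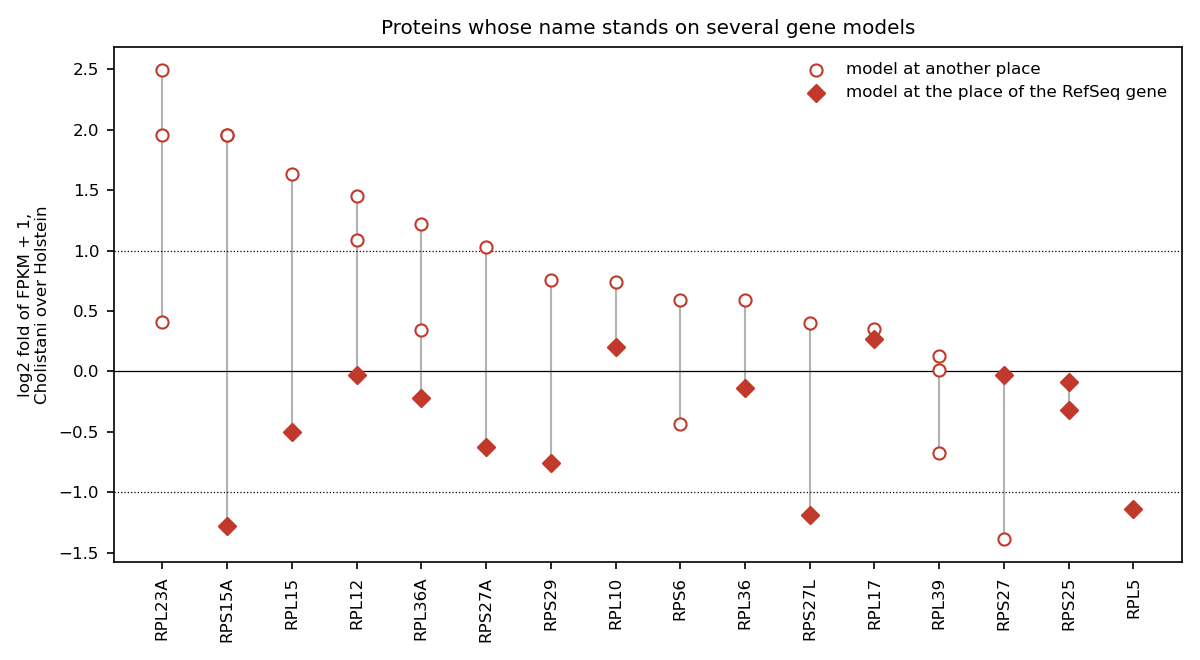
log2 fold of FPKM + 1 in Cholistani over Holstein for every model above 0 of the 16 proteins whose name stands on several models; filled diamonds are models at the place of the RefSeq gene, open circles models at another place, grey lines join models of a protein, and dotted lines mark 2-fold. Open circles lie above the filled diamond for nearly every protein that has both, with RPS27 the exception.

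With only models at the RefSeq place, 67 proteins remained above 0. Against Holstein 8 of them were higher in Cholistani by 2-fold or more and 5 lower, with a median log2 fold of 0.41. Against Jersey 7 were higher and 7 lower, with a median of 0.16. Over all models 19.7% were that much higher and 13.7% lower against Holstein, and 17.2% and 14.2% against Jersey. RPL22, RPS9, RPL28, RPSA, RPL18 and RPLP0 were among the 8, and RPS26, RPL37, RPL5, RPS15A and RPS27L were the 5. Aligned reads were allowed up to 20 places in the genome by the study, and how reads were divided between copies was not tested.

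Other genes of ribosome synthesis and translation were set beside the members. Of 56 ribosome biogenesis factors 25 were measured, and between Cholistani and Holstein 2 were higher and 1 lower, with a median log2 fold of 0.37. These are 8% and 4% of the 25, against 19.7% and 13.7% of all models. NPM1, a nucleolar chaperone, had 587 FPKM in Cholistani, 271 in Jersey and 248 in Holstein, and NOB1, the nuclease that finishes small subunit RNA, had 410, 193 and 188 FPKM. DDX18, a helicase of large subunit assembly, had 8.13, 31.6 and 34.3 FPKM. Of 19 genes for RNA polymerase I and its factors 10 were measured, none past 2-fold, with a median of 0.32.

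TOR signalling genes lay on both sides. Of 26 listed, 18 were measured, with 4 higher and 4 lower in Cholistani than in Holstein and a median of -0.09. Each count is 22.2% of the 18, against 19.7% higher and 13.7% lower over all models. RPS6KB2, a kinase of RPS6, had 2229 FPKM in Cholistani, 641 in Jersey and 425 in Holstein (2.39), and EIF4EBP1, a repressor of cap-dependent translation, had 994, 364 and 376 FPKM (1.40). MLST8 and RHEB were the other 2 higher genes. MTOR itself, the kinase, had 32.0 FPKM in Cholistani, 54.1 in Jersey and 65.5 in Holstein (-1.01), and LARP1, which binds TOP messages, had 85.4, 164 and 176 FPKM (-1.03). RICTOR at -1.61 and RPS6KA5 at -1.19 were also lower.

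Of 15 TOP genes that encode no ribosomal protein by the naming rule, 13 were measured. Of these 4 (30.8%) were higher in Cholistani than in Holstein and 0 lower, with a median log2 fold of 0.52. The shares over all models were 19.7% and 13.7%, and over the abundant ones 26.6% and 3.93%. TPT1, a growth-related calcium-binding protein, had 59948 FPKM in Cholistani, 26362 in Jersey and 24165 in Holstein (1.31), and EIF3F, NPM1 and EIF3E were the other 3. The TPT1 values come from a model on chromosome 18, whose place among RefSeq neighbours was not examined. EEF1A1, the factor that brings transfer RNA to the ribosome, had 6129, 10536 and 10731 FPKM (-0.81). Of 48 translation factors 31 were measured, with 5 higher and 1 lower (16.1% and 3.23%) and a median of 0.53. EIF4E, which binds the mRNA cap, was the lower one, with 270 FPKM in Cholistani, 526 in Jersey and 589 in Holstein. The lists share genes and are not separate evidence. EEF1A1, EIF3E and EIF3F, among others, are counted both as TOP genes and as translation factors. NPM1 is counted both as a TOP gene and as a biogenesis factor.

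The 67 mitochondrial ribosomal proteins, which serve a separate ribosome and are encoded by other genes, had a median log2 fold over Holstein of 0.71. Of these 17 were higher and 1 lower (25.4% and 1.49%), against 19.7% and 13.7% of all models. On libraries of equal sum their median was 0.04, against -0.11 for the cytosolic proteins and -0.15 for the translation factors. In Jersey against Holstein the mitochondrial proteins had a median of 0.11 and the translation factors one of 0.03, against 0.21 for the cytosolic ribosomal proteins.

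**Figure D4:**
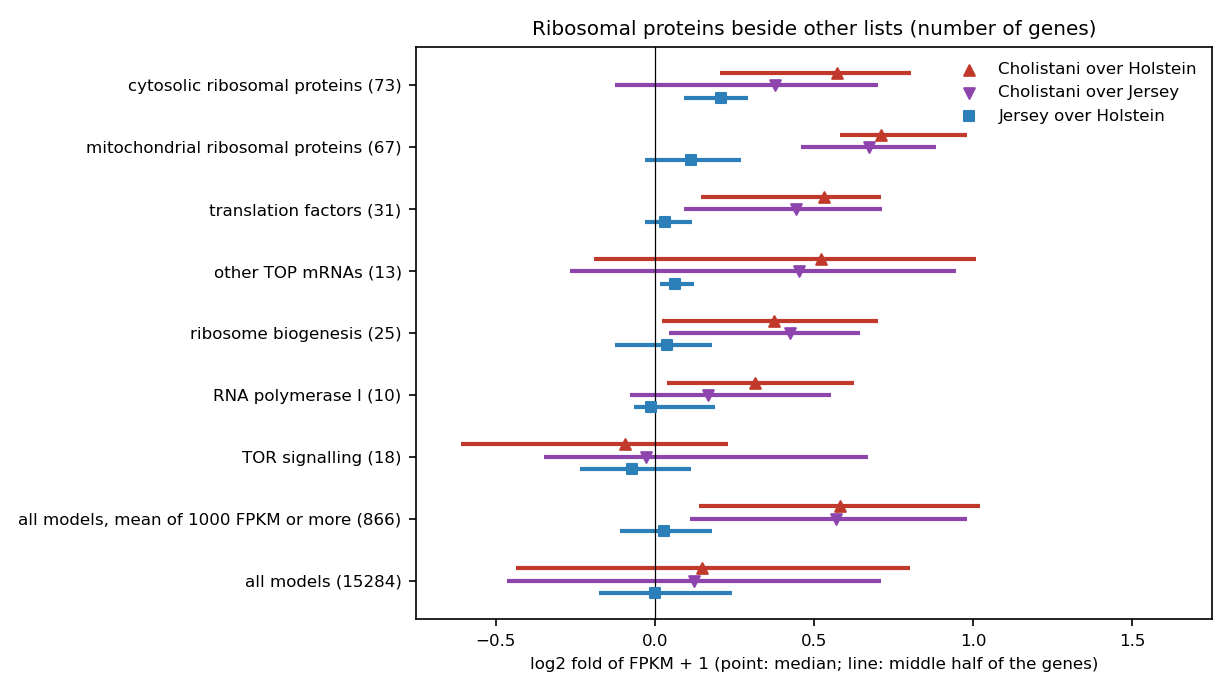
Median log2 fold of FPKM + 1 (points) and interquartile range (lines) for the cytosolic ribosomal proteins, other gene lists, the 866 abundant models and all 15284 models, in Cholistani over Holstein, Cholistani over Jersey and Jersey over Holstein; the number of genes stands in brackets. Some genes stand in more than 1 list. The cytosolic ribosomal proteins have medians of 0.57, 0.38 and 0.21, and theirs is the highest median of the 9 groups drawn in Jersey over Holstein.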

How the data were processed

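RNA was extracted from white blood cells of pooled blood, and each breed gave 1 library. Per the labels and methods, the authors aligned reads to btau4.0 with TopHat 1.0.14 and Bowtie 0.12.7, discarding reads with more than 20 locations, and estimated FPKM with Cufflinks 0.9.3 on models merged with Ensembl release 60. The deposited FPKM values are scaled by upper quartile with a correction for sequence bias; fragments per gene are unknown, so no interval or floor was computed. Listed starts were taken to count from 0, and 1 was added. A listed span can cover several models, as for 31 of the chosen ones.

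Models above 0 in any library without missing values (5 models had some) were kept. Folds are log2 of FPKM + 1 ratios, with a threshold of 2-fold and no test. Symbol and UniProt entry names were merged per protein, all 75 matched RefSeq symbols, and neighbours came from ARS-UCD2.0, with at least 3 shared neighbours marking the RefSeq place. Python 3.11.15 with pandas 2.3.3 was used, and the counting was tested on simulated data. Named genes were the 10 most abundant members, the 10 highest and 10 lowest in Cholistani against Holstein, the 5 highest and 5 lowest in Jersey against Holstein, all members past 2-fold, at 0 or 2-fold off the list median, paralogs, stalk, 5S and fusion proteins, and up to 4 genes past 2-fold per direction in other lists. Several models and genes beyond this were named after their values were seen. Members and lists were chosen with earlier results of these data known. No sequences were read. A few members and related genes covered by this rule are not reported here by name; they stay in the counts, sums and medians.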

Additional observations from a re-analysis of the deposited data

How the results depend on the processing

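Of 93 recomputed values, 81 kept their direction and stayed close, 10 moved and 2 reversed. Many of the 81 had little room to move. The lowest member mean was 273 FPKM, so the minimum of 100 FPKM removed no member and the pseudocounts were small beside the levels. The 2-fold counts of Jersey against Holstein were 0 under every setting. Rescaling the libraries to the mean FPKM sum gave 3 members higher and 9 lower in Cholistani than in Holstein, with a median log2 fold of -0.11, and 2 higher and 13 lower than in Jersey, with a median of -0.22. Both reversed medians follow from the scale, which shifts every fold by -0.68 and -0.60. Centring folds on models with at least 10 FPKM gave medians of 0.40 and 0.23. Models at the RefSeq place only, chosen after seeing the data, gave 8 higher and 5 lower and a median of 0.41 against Holstein, and a median of 0.16 against Jersey. Other pseudocounts, a minimum of 100 FPKM, FPKM summed over all models of a name, members on 1 model and, chosen after seeing the data, separate names or spans of at least 1000 bases moved no count past 1.5-fold. No paired analysis was possible because each breed had 1 library.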
